A study of Danio rerio with 10 samples.

Results

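The genes described here encode proteins of the nuclear pore and the receptors that carry cargo through it. They were chosen by name from the deposited expression table: every row whose symbol starts with nup, xpo, ipo or tnpo followed by a digit, or with xpot, kpna or kpnb. The rule found 45 of the 32233 rows, which belong to 44 gene IDs because xpo6 has 2 rows. Of these rows 19 are nucleoporins and 26 are transport receptors. The samples are zebrafish erythroid cells, sorted as positive for gata1 from embryos at 24 hours post fertilization. One group of 5 libraries comes from embryos labelled sf3b1 mutant (replicates 1, 3, 4, 5 and 6), and the other of 5 comes from their siblings, titled WT (replicates 2 to 6). The labels name neither the mutant allele nor how many embryos, or which clutch, stand behind a library. The p-values therefore reflect the spread among these libraries alone, part of which may be technical. Sf3b1 is a core subunit of the SF3b complex, the part of the spliceosome that binds the branch point of introns.

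The nuclear pore complex is a channel through the nuclear envelope, built from many copies of each nucleoporin. Scaffold nucleoporins form inner and outer rings, nucleoporins rich in phenylalanine-glycine repeats fill the channel, and further ones make up the cytoplasmic filaments and the nuclear basket. Importins bring proteins in and exportins take proteins and RNAs out, and the small GTPase Ran, loaded with GTP in the nucleus, releases cargo from the former and loads it onto the latter. Spliceosomal snRNPs and their proteins rely on this traffic, since most spliceosomal snRNAs are exported, assembled with proteins in the cytoplasm and imported again. Maturing red cells condense their nucleus, a step for which exportin 7 has been studied in mouse erythroblasts.

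The transcript of the mutated gene separated the groups. sf3b1 lay between 15.996 and 21.3 FPKM (sequenced fragments divided by transcript length and by the library's total) in mutants and between 36.3 and 43.9 FPKM in siblings. Sibling 2, whose genotype tag reads mutant against its title, was at 41.0 FPKM, within the range of the other siblings. It is treated as a sibling by its title, since the design text gives 5 libraries per group. The sf3b1 level alone does not settle its genotype. On the first principal component over all tested rows the mutant libraries lay between -34.2 and -30.4. The sibling libraries lay between 23.8 (sibling 2) and 40.5 (sibling 6). Mutant 1 and sibling 2 stood apart from the other libraries on the second principal component, at 50.9 and 45.6. They also had the highest summed levels of 10 epidermal marker rows, 592.3 and 365.6 FPKM, where the other libraries ranged from 112.3 to 318.5 FPKM. Summed levels of 9 erythroid marker rows, among them gata1a and globin genes, were lowest in the same libraries of each group, at 2414 FPKM in mutant 1 and 4878 FPKM in sibling 2. They were highest in mutant 4 (8576 FPKM) and sibling 6 (21952 FPKM). All 9 rows were lower on average in mutants, with log2 fold changes from -1.81 (hbae1) to -0.33 (epor). None of them passed the test between groups, with hbbe1.1 just short of it at -1.37 (limma adjusted p = 0.0502). Myeloid markers passed in 6 of 8 rows, all lower in mutants, with sums of 130.4 to 294.3 FPKM in mutants and 345.5 to 690.2 FPKM in siblings. Of 3 tested muscle markers acta1b fell, with sums of 37.2 to 137.4 FPKM in mutants and 77.8 to 315.4 FPKM in siblings. No marker row of any list was at 0 in every library.

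In sibling cells the levels spanned from 79.2 FPKM for ipo7 to 0.0938 FPKM for kpna7. FPKM is scaled by transcript length, so levels can be compared between genes, but only roughly. The 2 rows of xpo6 had sibling means of 10.1 and 21.7 FPKM, although they belong to the same gene. ipo7, a receptor for ribosomal proteins and histone H1, led with 79.2 ± 7.65 FPKM (SD, n = 5). kpnb1, the importin beta of the classical import pathway, followed at 66.3 ± 17.6 FPKM, and kpna2, one of its importin alpha adaptors, at 48.5 ± 9.75 FPKM. The sibling libraries of ipo7 and kpnb1 overlapped, as did those of kpnb1 and kpna2. In all, 11 rows had a sibling mean of at least 20 FPKM, 25 lay between 5 and 20 FPKM and 9 lay below 5 FPKM. The lowest above the filter were nup37 and ipo8, at 1.87 and 2.02 FPKM. kpna7, an importin alpha known from eggs and early embryos in mammals, was listed at 0 in mutant 3, mutant 5, sibling 2 and sibling 5 and was the only row that did not reach the mean of 1 FPKM needed for testing.

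**Figure D1:**
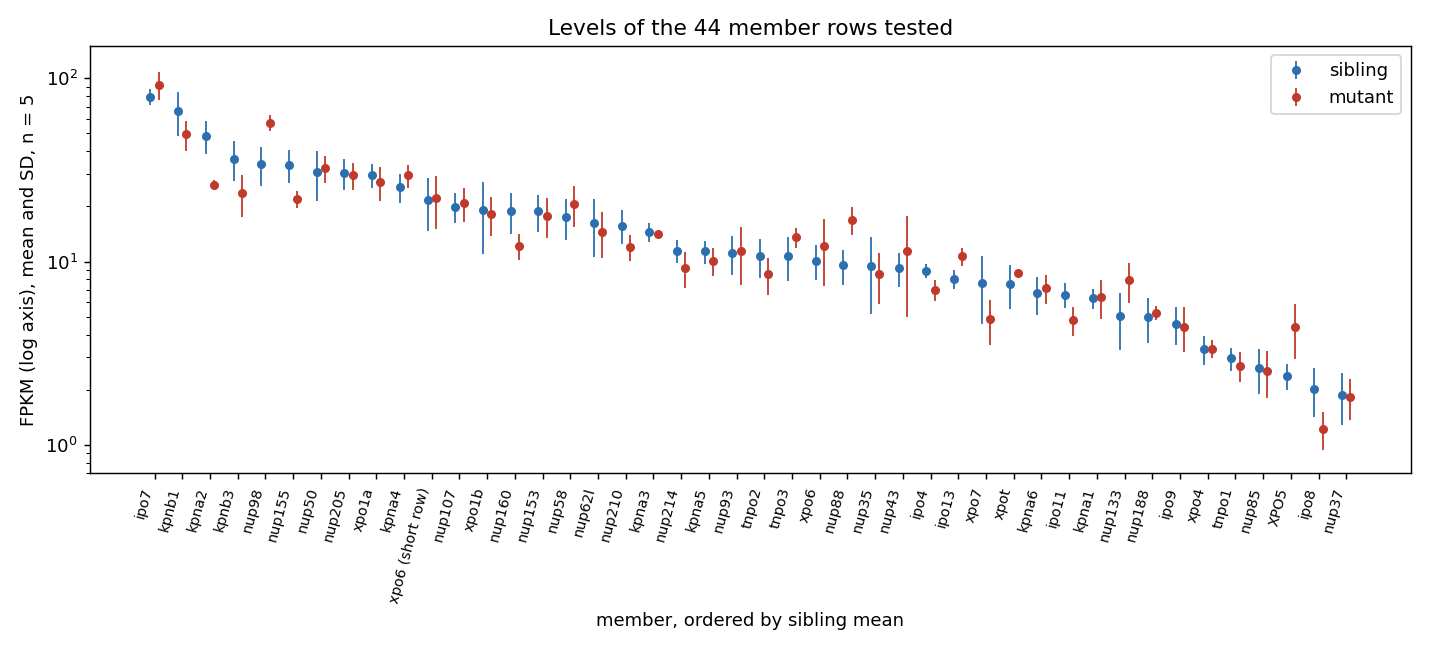
Mean FPKM (log axis) of the 44 tested rows in 5 sibling libraries (blue) and 5 mutant libraries (red), with SD as bars and genes ordered by sibling mean. ipo7 is highest in both groups, and nup98, nup88 and XPO5 lie higher, kpna2 and nup155 lower, in mutants.

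The comparison of the groups asks what a mutation in a splicing factor does to transcripts of early red cells, here those of the transport machinery. Among the 44 rows tested, 3 rose and 2 fell in mutants, while 39 did not pass. Those that rose were nup98, nup88 and XPO5, and those that fell were kpna2 and nup155. On the log2(FPKM + 1) scale all these changes were under 2-fold. The test was limma on that scale across all genes, with a Benjamini-Hochberg adjusted p under 0.05. Of all 13003 rows tested, 14.3% were called (5.59% higher and 8.74% lower in mutants), so the 11.4% of members called is near the share over all rows and is no result about the family. Of the 44 members tested, group ranges did not overlap for 4 that were higher in mutants and 3 that were lower. Over all rows the shares were 4.98% higher and 7.26% lower, or 12.2% in either direction. The median log2 fold change was -0.02 over the members and -0.06 over all rows. Fewer cells of a type and less RNA per cell cannot be told apart in such bulk samples, and the part of the myeloid, muscle, epidermal and erythroid differences given above in these changes was not tested.

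**Figure D2:**
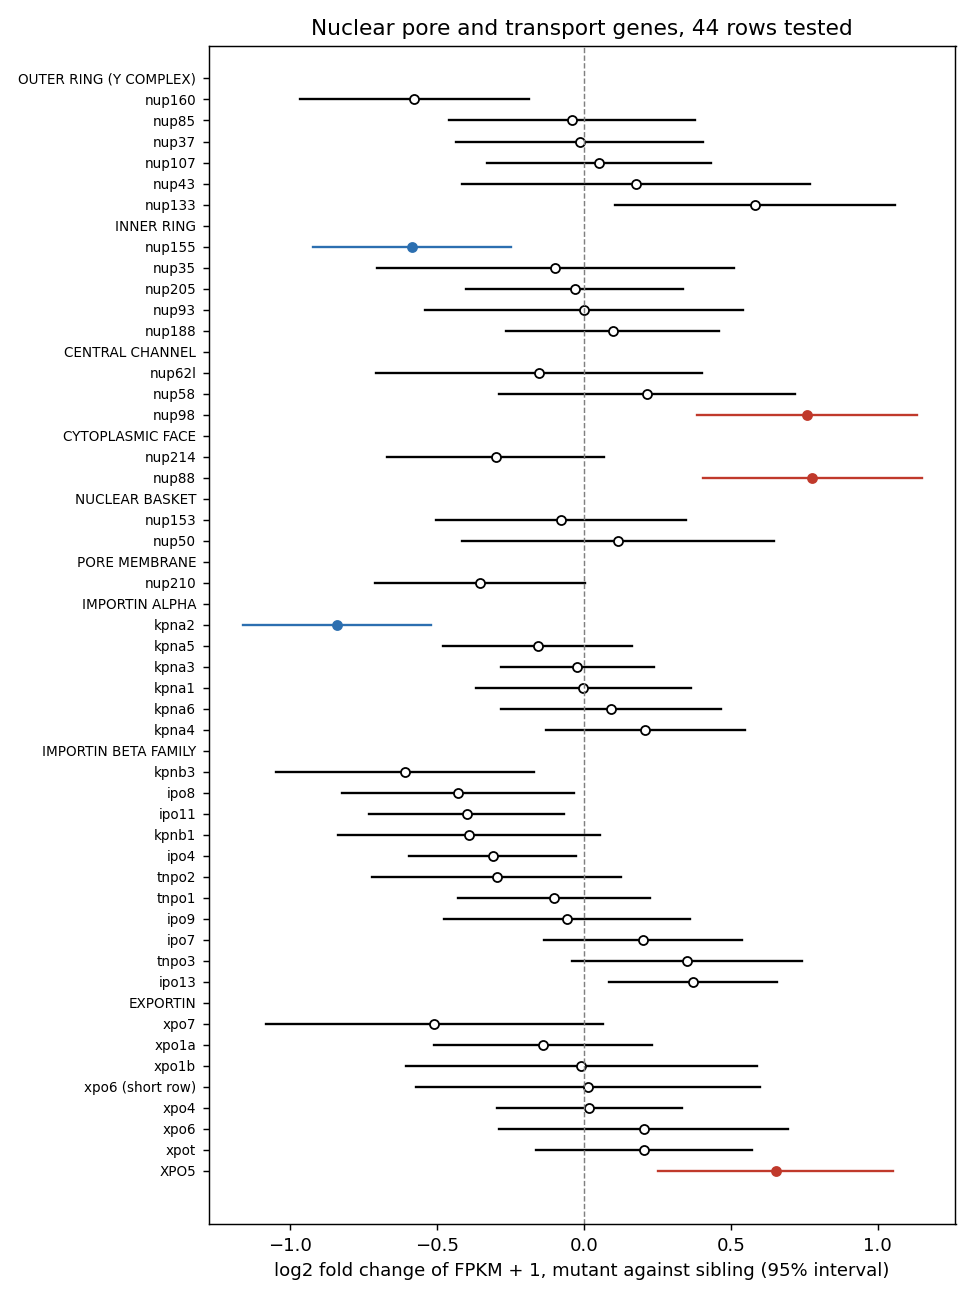
Log2 fold change of FPKM + 1 (mutant against sibling) for the 44 tested rows, grouped by role, with 95% intervals from limma. Red filled points rose, blue filled points fell and open points did not pass an adjusted p of 0.05; most intervals span 0.

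On the log2(FPKM + 1) scale the largest rise among members was that of nup88, a nucleoporin of the cytoplasmic face that holds nup214 in place. Its mutant libraries lay at 14.4, 14.3, 21.3, 16.2 and 18.6 FPKM, and its sibling libraries at 7.26, 7.57, 11.1, 9.89 and 11.8 FPKM. Every mutant library was above every sibling library, and mutant 4 and mutant 6 were highest. The means were 16.9 ± 2.96 and 9.52 ± 2.04 FPKM (SD, n = 5), a log2 fold change of 0.78 (SE 0.17, limma adjusted p = 0.0114). nup88 (ENSDARG00000003235) lies on chromosome 5 of GRCz10, at 58419990 to 58442257. nup214, its partner on the cytoplasmic face and the member there with the higher sibling level, did not move with it. Its mutant libraries lay at 6.17 to 11.8 FPKM and its sibling libraries at 9.22 to 13.6 FPKM, and its log2 fold change was -0.30 (95% interval -0.67 to 0.07, limma adjusted p = 0.272).

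nup98 had the highest mean among the 19 nucleoporin rows chosen by symbol in both groups, although in siblings nup155 was close to it, and it rose by a similar amount. It encodes a phenylalanine-glycine nucleoporin that binds export factors and, in vertebrates, a precursor whose other cleavage product is Nup96 of the outer ring, so its row covers both proteins. Mutant libraries lay at 55.5, 48.2, 63.6, 58.4 and 60.8 FPKM and sibling libraries at 25.3, 34.0, 38.6, 27.0 and 45.3 FPKM. The groups did not overlap, although sibling 6 came within a few FPKM of mutant 3. The means were 57.3 ± 5.91 and 34.0 ± 8.26 FPKM (SD, n = 5), with a log2 fold change of 0.76 (SE 0.17, limma adjusted p = 0.0129). nup98 (ENSDARG00000074955) lies on chromosome 21, at 40331228 to 40375086. For both nup88 and nup98 sibling 2 had the lowest level of all 10 libraries. Counting it as a mutant, as its genotype tag says, ended both calls at limma adjusted p of 0.2501 and 0.292, and no other alternative did.

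The other tested nucleoporins of the central channel did not pass. nup58, which forms the channel with nup62 and nup54, had a log2 fold change of 0.21 (95% interval -0.29 to 0.72). nup62l, the row for a nup62-like gene, had one of -0.15 (95% interval -0.71 to 0.40), with mutant 1 lowest at 7.52 FPKM and sibling 6 highest at 26.0 FPKM.

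**Figure D3:**
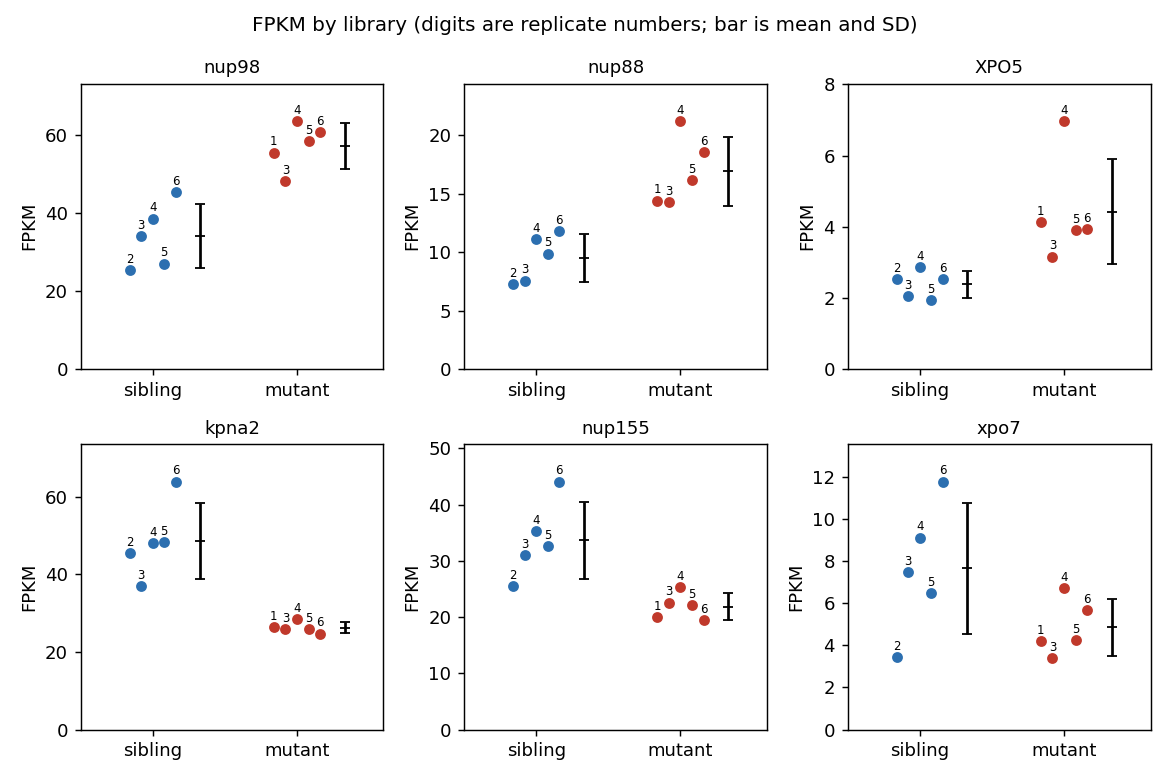
FPKM in each library of the 5 called members and of xpo7, with sibling libraries in blue, mutant libraries in red, replicate numbers above the points and mean ± SD (n = 5) as bars. The groups are separate for nup98, nup88, XPO5, kpna2 and nup155 and overlap for xpo7.

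Among 11 genes assigned to the scaffold rings 1 fell and 0 rose, so 9.09% were called beside 14.3% of all rows. This count leaves out nup98, which rose and whose row also covers Nup96 of the outer ring. nup155, which links the inner ring to the membrane and was the most abundant inner ring gene in siblings, lay at 19.96, 22.6, 25.3, 22.2 and 19.4 FPKM in mutants and at 25.5, 31.0, 35.3, 32.6 and 44.1 FPKM in siblings. Its groups only just failed to touch, between mutant 4 and sibling 2. The means were 21.9 ± 2.35 and 33.7 ± 6.82 FPKM (SD, n = 5), a log2 fold change of -0.58 (SE 0.15, limma adjusted p = 0.0267). nup155 (ENSDARG00000001777) lies on chromosome 10, at 1568789 to 1608719. The call ended with median of ratios scaling (limma adjusted p = 0.0657). It also ended without mutant 3, mutant 5 or mutant 6, at limma adjusted p of 0.0508, 0.0521 and 0.0631, and without sibling 4, sibling 5 or sibling 6, at 0.0640, 0.0534 and 0.0529.

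Its partners of the inner ring gave small differences. nup205, a large scaffold subunit of similar sibling abundance, was at 29.7 ± 4.98 and 30.4 ± 5.94 FPKM (SD, n = 5), with a log2 fold change of -0.03 (95% interval -0.40 to 0.34). nup188, the relative of nup205, nup93, which anchors the channel nucleoporins, and nup35 had log2 fold changes of 0.10, 0.00 and -0.10. nup35 lies on chromosome 9, the chromosome of sf3b1, 20.1 Mb away. A difference as large as that of nup155 falls inside the interval of nup35 (-0.70 to 0.51) but outside that of nup205.

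In the outer ring, or Y complex, 0 of 6 genes passed, with nup98 not counted there. Among these 6, nup160 and nup133 had the largest differences, in opposite directions. nup160, a subunit of one arm of the Y, was at 9.62, 11.1, 14.2, 11.9 and 14.0 FPKM in mutants and at 15.3, 14.5, 21.2, 17.4 and 26.1 FPKM in siblings. Every mutant library was below every sibling library, with a log2 fold change of -0.58 (SE 0.18) and a limma adjusted p of 0.0502. Among alternatives that do not use the replicate number, nup160 passed without sibling 2 or sibling 3 (limma adjusted p = 0.0431 and 0.0408), with quantile normalization (0.0488), with array weights (0.0371) and among genes of at least 5 FPKM (0.0356). nup133, a subunit whose loop senses curved membrane, was higher in mutants by 0.58 (SE 0.22, limma adjusted p = 0.0971). Its mutant libraries ranged from 5.57 to 10.1 FPKM and its sibling libraries from 3.32 to 6.97 FPKM, and they overlapped. It lies on chromosome 1, as does another member, the exportin gene xpo1a, with 207.1 kb between them. nup107, nup43, nup37 and nup85 had log2 fold changes from -0.04 to 0.18. The most abundant of these in siblings, nup107, was at 20.8 ± 4.47 FPKM in mutants and 19.9 ± 3.72 FPKM in siblings (SD, n = 5). nup37 shares 14536 bases with parpbp, a gene of DNA repair, and the sources used here do not say whether counting used strand, so reads of the overlap cannot be assigned.

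At the nuclear basket and the membrane no gene passed. nup50, a mobile basket protein that helps release cargo from importin alpha, was at 26.4 to 38.0 FPKM in mutants. Its sibling libraries lay at 14.4, 31.6, 35.0, 35.6 and 37.6 FPKM, so sibling 2 was far below the others. The log2 fold change of 0.12 (limma adjusted p = 0.799) became -0.13 without sibling 2. nup153, which anchors the basket, had a log2 fold change of -0.08 (95% interval -0.50 to 0.35). nup210, a membrane-spanning nucleoporin, was at 12.0 ± 1.94 and 15.7 ± 3.33 FPKM (SD, n = 5), with a log2 fold change of -0.35 (limma adjusted p = 0.178).

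kpna2 fell, and it was the member with the smallest p. It encodes an importin alpha, an adaptor that binds the nuclear localisation signal of a cargo and hands it to importin beta. In human cells its transcript is known to peak late in the cell cycle. kpna2 lay at 26.4, 25.9, 28.5, 26.0 and 24.7 FPKM in mutants and at 45.5, 37.0, 48.1, 48.3 and 63.9 FPKM in siblings. The mutant libraries were tightly grouped, and all lay well below the lowest sibling library, sibling 3. The means were 26.3 ± 1.39 and 48.5 ± 9.75 FPKM (SD, n = 5), a log2 fold change of -0.84 (SE 0.15, limma adjusted p = 0.0033). kpna2 (ENSDARG00000038066) lies on chromosome 3, at 25239370 to 25246615. Its call ended in a single alternative, with sibling 2 counted as a mutant (limma adjusted p = 0.0563).

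None of the other 5 tested importin alpha genes was called. kpna4, the second most abundant, was at 29.5 ± 4.29 FPKM in mutants and 25.5 ± 4.69 FPKM in siblings (SD, n = 5), so in mutants its mean was above that of kpna2 and in siblings below it. Log2 fold changes were 0.21 for kpna4, 0.09 for kpna6, 0.00 for kpna1, -0.02 for kpna3 and -0.16 for kpna5. The 95% interval of kpna3, from -0.28 to 0.24, was the narrowest of these, with mutant libraries at 13.4 to 14.7 FPKM and sibling libraries at 13.3 to 17.4 FPKM. No interval of these 5 genes reached the size of the fall of kpna2, but they extended up to 0.55 (kpna4) and down to -0.48 (kpna5).

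No gene of the importin beta family passed the test, out of 11. Of these, 8 had a negative and 3 a positive log2 fold change, with a median of -0.30 beside -0.06 over all rows. Over all 13003 rows tested, 7212 were negative and 5791 positive. The family was not tested as a set. ipo7, the most abundant, was at 67.2 to 107.3 FPKM in mutants and 66.5 to 85.5 FPKM in siblings, and its log2 fold change was 0.20 (95% interval -0.13 to 0.54). kpnb1 was at 47.1, 38.6, 63.6, 51.9 and 46.1 FPKM in mutants and at 51.9, 44.1, 83.1, 70.2 and 82.0 FPKM in siblings. Its groups overlapped in sibling 2 and sibling 3, and the log2 fold change was -0.39 (95% interval -0.83 to 0.05, limma adjusted p = 0.234). The kpnb1 row shares 13246 bases with btr30 (0.239 FPKM in mutants and 0.282 FPKM in siblings). It also shares 142 bases with SNORA79 (17.5 FPKM in mutants and 49.3 FPKM in siblings). The part of these rows in the kpnb1 values was not tested.

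kpnb3, whose current symbol is IPO5 and which imports ribosomal proteins and histones, came closest to a fall. It was at 19.9, 20.4, 32.8, 18.2 and 26.3 FPKM in mutants and at 30.1, 30.8, 46.9, 29.0 and 45.0 FPKM in siblings, so mutant 4 was the sole mutant library within the sibling range. The log2 fold change was -0.61 (SE 0.20, limma adjusted p = 0.0636). Among alternatives that do not use the replicate number, it passed without mutant 4 (limma adjusted p = 0.0337), with quantile normalization (0.0456) and with array weights (0.0442). In addition 3 import receptors had an unadjusted p under 0.05 and were lower in mutants. They were ipo11, which carries ubiquitin-conjugating enzymes, ipo4, a receptor for histones, and ipo8, with log2 fold changes of -0.40, -0.31 and -0.43 and limma adjusted p of 0.101, 0.136 and 0.138. With kpnb3 this makes 4 of 11 in the importin beta family, while 1 of 11 was higher at the same unadjusted level. Over all 44 tested members 7 were lower and 5 higher at that level. Over all 13003 rows tested 2287 were lower and 1480 higher.

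ipo13 was the import receptor on the other side. It carries the Y14-Mago pair of the exon junction complex and the SUMO-conjugating enzyme Ubc9 into the nucleus in mammalian cells. Mutant libraries lay at 8.92, 10.4, 12.1, 11.1 and 10.9 FPKM and sibling libraries at 8.58, 7.10, 8.77, 6.93 and 8.74 FPKM. The groups did not overlap, but the gap between mutant 1 and sibling 4 was narrow. The log2 fold change was 0.37 (SE 0.13, limma adjusted p = 0.0786). It passed without mutant 1 (limma adjusted p = 0.0483), with array weights (0.0351), with median of ratios scaling (0.0460), with quantile normalization (0.0473) and when mutant 1 and sibling 2 were both left out (0.0491).

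The transportins carry RNA-binding proteins. tnpo3, which imports SR splicing factors, was at 12.0 to 16.5 FPKM in mutants and 7.22 to 14.0 FPKM in siblings, with a log2 fold change of 0.35 (95% interval -0.04 to 0.74, limma adjusted p = 0.225). tnpo1, which imports hnRNP A1, had a log2 fold change of -0.10 (95% interval -0.43 to 0.22). tnpo2 had one of -0.30 (95% interval -0.72 to 0.13). ipo9, a receptor for core histones, was at 4.41 ± 1.21 and 4.59 ± 1.06 FPKM (SD, n = 5) in mutants and siblings.

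Among 8 tested exportin rows XPO5 rose and 0 fell. Exportin 5 carries precursors of microRNAs out of the nucleus. XPO5 was low, at 4.13, 3.16, 6.98, 3.91 and 3.92 FPKM in mutants and at 2.53, 2.04, 2.86, 1.93 and 2.52 FPKM in siblings. The groups did not overlap, and mutant 4 was far above the other mutants. The means were 4.42 ± 1.48 and 2.38 ± 0.385 FPKM (SD, n = 5), a log2 fold change of 0.65 (SE 0.18, limma adjusted p = 0.0343). XPO5 (ENSDARG00000098868) lies on chromosome 13, at 2727949 to 2757690. Its call ended without mutant 4, mutant 5 or mutant 6, at limma adjusted p of 0.0575, 0.0553 and 0.0542. It also ended without sibling 3, sibling 5 or sibling 6, at 0.0724, 0.0809 and 0.0567, and without both mutant 1 and sibling 2, at 0.0584. With no filter on low values the limma adjusted p was 0.0670, and with sibling 2 counted as a mutant 0.133.

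xpo1a and xpo1b encode copies of exportin 1, the main receptor for proteins with a leucine-rich export signal and, with the adaptor Phax, for snRNAs. Reads may be divided between such copies, so each row is uncertain. xpo1a was the most abundant exportin row, at 18.5, 28.7, 34.2, 26.1 and 28.0 FPKM in mutants and at 27.7, 26.4, 25.9, 31.9 and 36.2 FPKM in siblings. The groups overlapped, and its log2 fold change was -0.14 (95% interval -0.51 to 0.23). xpo1b varied more, at 11.6 to 22.6 FPKM in mutants and 11.3 to 31.0 FPKM in siblings, with a log2 fold change of -0.01 (95% interval -0.60 to 0.59). The log2 ratio of xpo1a to xpo1b, each FPKM + 1, was 0.56 ± 0.24 in mutants and 0.69 ± 0.67 in siblings (SD, n = 5). It differed by -0.13 between the groups, with a two-sided exact permutation p of 0.738 over 252 relabellings, for the 1 pair of copies that could be compared. Sibling 4 was the single library in which xpo1b exceeded xpo1a.

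xpo7 encodes exportin 7, the exportin studied in red cell maturation. It was at 4.20, 3.40, 6.73, 4.23 and 5.68 FPKM in mutants and at 3.42, 7.46, 9.11, 6.46 and 11.8 FPKM in siblings. Sibling 2 lay among the mutants, and the other siblings lay above the highest mutant except for sibling 5. The log2 fold change was -0.51 (SE 0.26, 95% interval -1.08 to 0.07, limma adjusted p = 0.230). Among alternatives that do not use the replicate number, without sibling 2 it was -0.73 and passed (limma adjusted p = 0.0416), and with sibling 2 counted as a mutant it was -0.79 and passed (0.0477). When mutant 1 and sibling 2 were both left out it did not pass (limma adjusted p = 0.0633). xpo7 shares 20841 bases with dmtn, the gene of the red cell membrane protein dematin (10.1 FPKM in mutants and 17.6 FPKM in siblings), and their reads cannot be told apart there if strand was not used.

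The other exportins showed no call. xpot, which exports tRNA, was tightly grouped in mutants, at 8.03 to 9.20 FPKM, and ranged from 5.16 to 10.1 FPKM in siblings. xpo4, an exportin of the translation factor eIF5A that lies on chromosome 9 at 10.8 Mb from sf3b1, had a log2 fold change of 0.02 (95% interval -0.30 to 0.33). xpo6, the exportin of actin, has a long row at 14935494 to 14970056 and a short one at 14981170 to 14981638 of chromosome 3, and their log2 fold changes were 0.20 and 0.01. In mutant 6 the long row was at its highest (20.4 FPKM) and the short row at its lowest (10.6 FPKM).

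**Figure D4:**
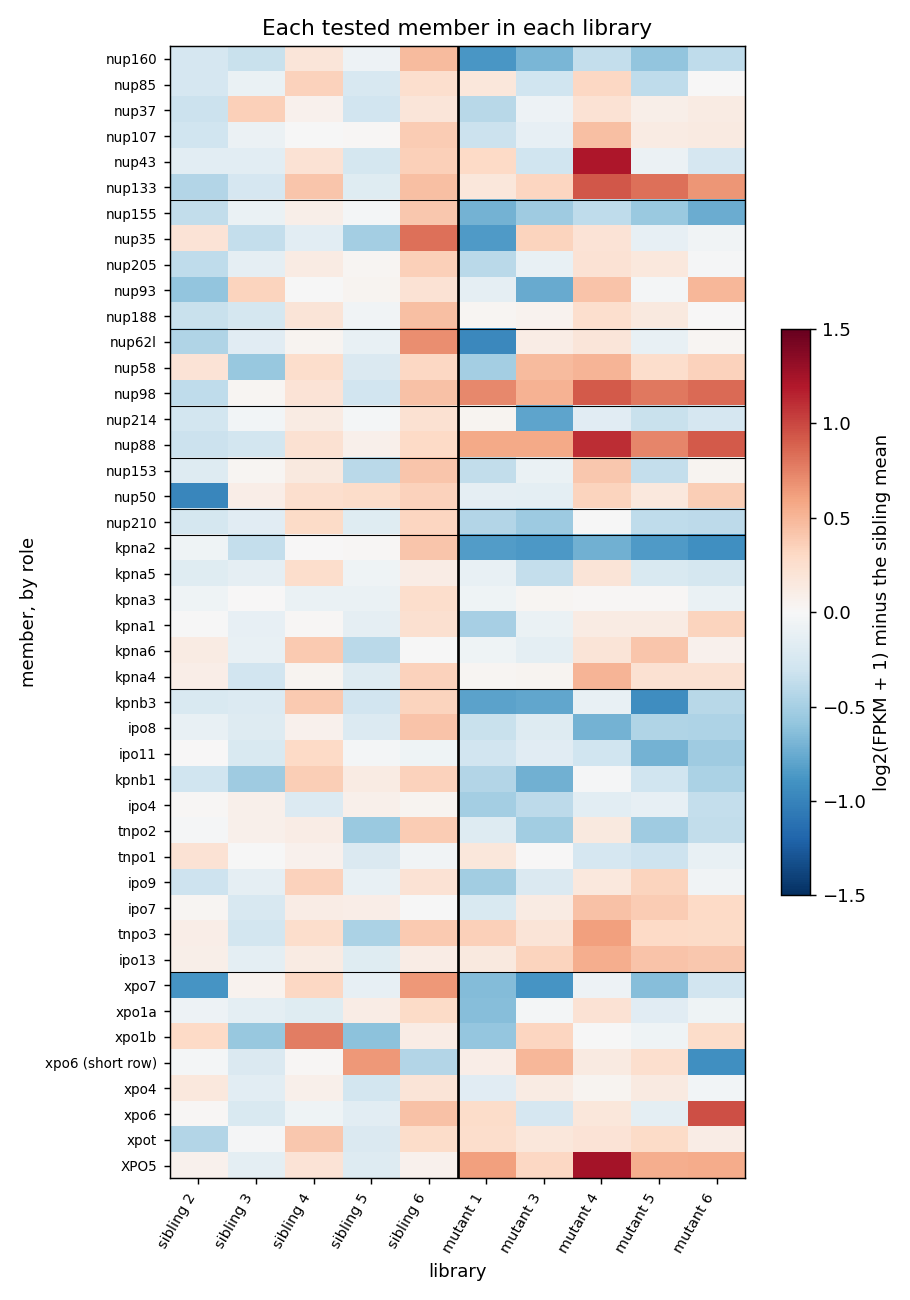
Difference of log2(FPKM + 1) from the sibling mean for each of the 44 tested rows (vertical, by role) in the 5 sibling and 5 mutant libraries (horizontal), red for higher and blue for lower. nup98 and nup88 are red and kpna2 and nup155 blue in every mutant library, while many rows share a shade down the columns of sibling 2 and sibling 6.

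Across roles, many members had their highest or lowest value in the same library. Among siblings, sibling 6 had the highest value for 27 of the 44 tested rows and sibling 2 the lowest for 18. Among mutants, mutant 4 had the highest value for 27 rows and mutant 1 the lowest for 18. These are also the libraries with the highest (sibling 6 and mutant 4) and lowest (sibling 2 and mutant 1) summed erythroid markers of their group. Mutant 1 and sibling 2 also had the lowest FPKM summed over all rows in their groups, 293816 and 345317. Mutant 4 and sibling 6, at 374823 and 372315, had the next lowest. The highest were 408230 in mutant 3 and 422870 in sibling 5. The same counts of highest and lowest values over all rows are not given here. The part of erythroid marker content or of summed FPKM in the members' levels was not tested. Without both mutant 1 and sibling 2, 3 members rose and 2 fell, and nup98, nup88, kpna2 and nup155 were among them, with ipo13 called in place of XPO5. The median coefficient of variation over the tested members was 19.8% in mutants and 23.2% in siblings.

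Genes of the same pathway that the name rule does not cover were taken from 4 lists. Among 12 further pore genes 0 rose and 1 fell, and the median log2 fold change was -0.02. That gene was aaas, which encodes aladin, a pore protein held by Ndc1. It was at 10.8, 12.2, 11.52, 19.9 and 12.5 FPKM in mutants and at 24.3, 16.4, 34.0, 27.4 and 33.6 FPKM in siblings. Mutant 5 lay above sibling 3, and the log2 fold change was -0.96 (SE 0.22, limma adjusted p = 0.0138). aaas lies on chromosome 9, 32.1 Mb from sf3b1. RANBP2, the large protein of the cytoplasmic filaments, was at 32.9 and 32.1 FPKM.

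Among the 12 tested genes of the list for the Ran cycle 0 rose and 2 fell, with a median of -0.11. rangap1b, which encodes a copy of the GTPase-activating protein of Ran, lay at 5.72, 9.65, 9.63, 8.53 and 11.02 FPKM in mutants and at 12.2, 14.8, 16.1, 15.2 and 21.3 FPKM in siblings. No mutant library reached the lowest sibling, and the log2 fold change was -0.78 (SE 0.19, limma adjusted p = 0.0169). Its call held in all 21 alternatives run. ranbp9, a scaffold protein named for Ran binding but known as a subunit of a ubiquitin ligase complex and not as a transport factor, fell by 0.56 on the log2 scale (limma adjusted p = 0.0298), and that call ended in 8 of 20 alternatives. ran itself was at 143.6 and 180.1 FPKM in mutants and siblings (limma adjusted p = 0.282). rangap1a, the other copy, had a log2 fold change of 0.18.

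The list of adaptors that take snRNAs out and snRNPs back in also held genes of snRNP assembly, namely smn1, strap and the gemin genes. Among its 12 tested genes 2 rose and 0 fell, with a median of 0.19. snupn, which encodes snurportin, the adaptor that links the cap of assembled snRNPs to importin beta, was at 18.4, 21.9, 20.8, 28.7 and 24.7 FPKM in mutants and at 9.13, 11.2, 9.05, 12.3 and 11.7 FPKM in siblings. The groups were far apart, with a log2 fold change of 1.03 (SE 0.15, limma adjusted p = 0.0011), the sole change of at least 2-fold in this list. Its call ended in 1 of 21 alternatives, with sibling 2 counted as a mutant (limma adjusted p = 0.0961). smn1, which places the Sm ring on snRNAs, had means of 11.9 and 7.18 FPKM and a log2 fold change of 0.63 (limma adjusted p = 0.0468), and that call ended in 11 of 21 alternatives. phax, the export adaptor of snRNAs, had a log2 fold change of 0.31 (limma adjusted p = 0.322).

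Of 19 tested genes of mRNA export 2 rose and 0 fell, with a median of 0.15. nxt2, a partner of the mRNA export receptor Nxf1, lay at 8.58, 5.86, 10.5, 8.53 and 5.55 FPKM in mutants and at 2.10, 3.40, 3.23, 2.70 and 2.06 FPKM in siblings. Its lowest mutant library was above its highest sibling library, with a log2 fold change of 1.23 (SE 0.19, limma adjusted p = 0.0014). nxf1 itself had a log2 fold change of -0.29 (limma adjusted p = 0.292). poldip3, a protein of the export complex TREX, was at 40.8 ± 6.92 and 26.5 ± 1.69 FPKM (SD, n = 5), with a log2 fold change of 0.59 (SE 0.14, limma adjusted p = 0.0165). The shares called in these lists, 8.33% to 16.7%, were again near the 14.3% of all rows. The calls of nxt2, poldip3 and aaas ended with sibling 2 counted as a mutant, at limma adjusted p of 0.09998, 0.110 and 0.0836, and in no other alternative.

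**Figure D5:**
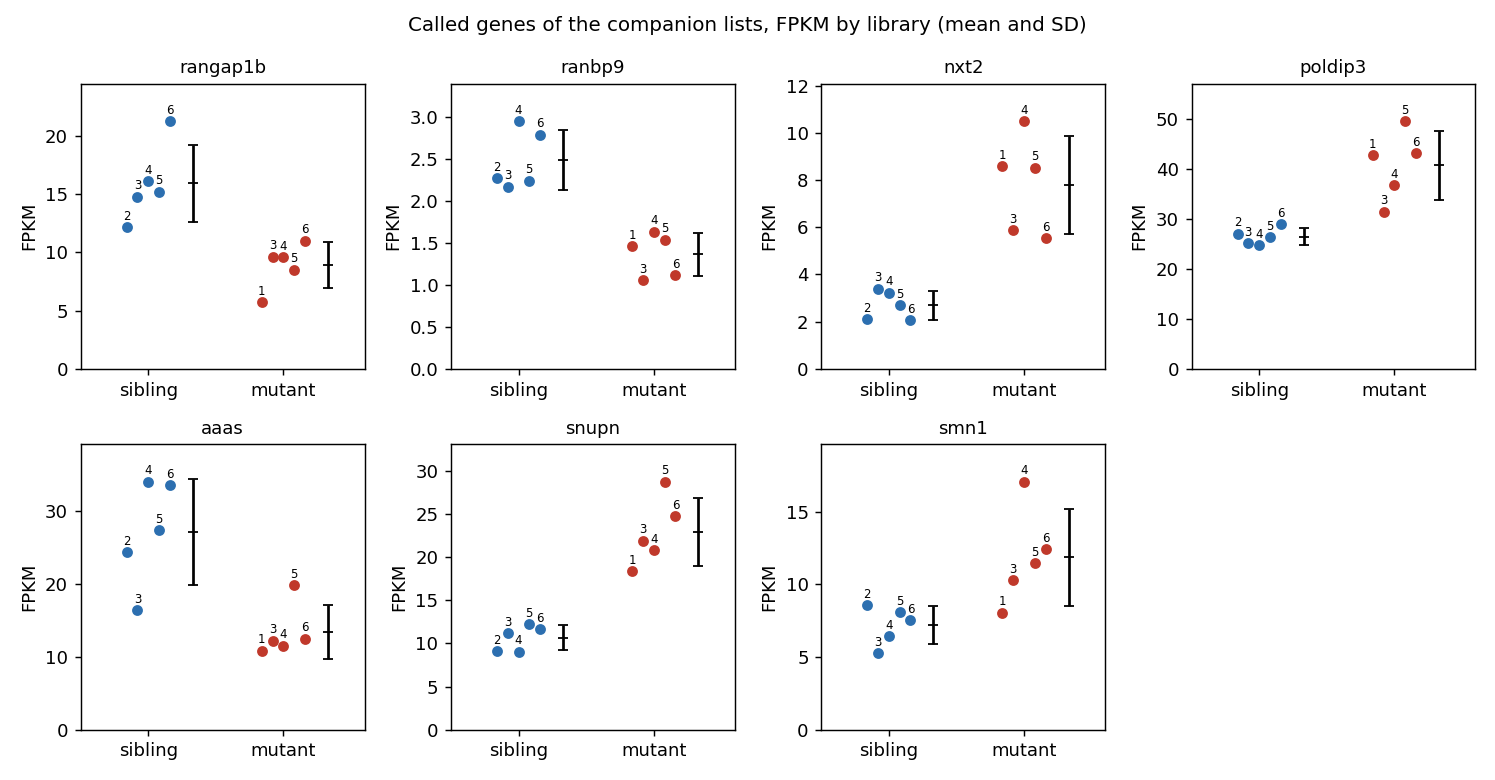
FPKM in each library of the 7 called genes from the 4 further lists, with sibling libraries in blue, mutant libraries in red, replicate numbers above the points and mean ± SD (n = 5) as bars. snupn, nxt2 and poldip3 are higher and rangap1b and ranbp9 lower in every mutant library, while aaas and smn1 overlap.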

How the data were processed

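Ribosomal RNA was removed from total RNA before stranded libraries were made, per the labels' protocols. The build was GRCz10 and the tools were Cufflinks 2.2.1, STAR 2.4.2a, Trim Galore and Picard, per the submitters' processing notes; the sources used here do not give the strand setting of counting. The file headers name the unit of the deposited values as FPKM. They hold no counts, so absolute depth is unknown. From the ratio that low values of the same gene shared most often, depth relative to mutant 1 ran from 0.58 (mutant 3) to 1.26 (sibling 6). That ratio was held by only 2.0% (sibling 5) to 4.18% (mutant 6) of the low rows compared, so these depths are rough. Positions are the table's with 1 base added to the start.

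Members and lists were chosen with earlier results of these data known. Libraries were grouped by title. limma 3.58.1 in R 4.3.3 (lmFit, then eBayes with a trend) was run on log2(FPKM + 1) of the 13003 rows whose mean reached 1 FPKM, with Benjamini-Hochberg adjustment over all of them and a threshold of 0.05. Fold changes on that scale understate changes of low genes, SDs are of FPKM, and intervals are 95% intervals of the fit. The fit was tried on simulated normal values drawn separately for each gene and library. These lack shifts that many genes of a library share, so that run cannot show how the fit handles such shifts. The ratio of xpo1a to xpo1b was tested by exact permutation. Named genes are the called members, the most abundant member of each role in siblings, xpo1a, xpo1b, xpo7 and at most 5 called genes of each further list. Others are named where their values were close to the threshold or where they are partners of these, and those were chosen after their values were seen. Of the listed symbols of further genes and markers 8 did not match. Alternatives were 2 other pseudocounts, 2 other filters, 2 scalings, limma without the trend or with array weights, sibling 2 counted as a mutant, the replicate block and each library left out. Leaving out mutant 1 and sibling 2 together was added after seeing the data. Sequences are not used here. Python 3.11.15 with pandas 2.3.3 and matplotlib 3.10.9 made the tables and figures.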

Additional observations from a re-analysis of the deposited data

Results flagged for a closer look

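In groups of 5 libraries, single libraries stood far from the other 4 for 6 of the 88 combinations of tested member and group, where chance alone flags about 1 in 20, or 4.4 of 88. Mutant 4 was highest for XPO5 at 6.98 FPKM (others 3.16 to 4.13), for nup43 at 22.4 FPKM (others 7.19 to 11.4) and for nup210 at 15.3 FPKM (others 10.3 to 11.6). Sibling 2 was lowest for nup50 at 14.4 FPKM (others 31.6 to 37.6). Sibling 4 was lowest for ipo4 at 7.58 FPKM (others 8.97 to 9.42), and sibling 6 was highest for kpna3 at 17.4 FPKM (others 13.3 to 14.5).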

How the results depend on the processing

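The count of rising members, 3, was 2 to 4 in every alternative except with sibling 2 counted as a mutant, which left 0. That alternative put a library with 41.0 FPKM of sf3b1 among the mutants and lowered the calls over all genes from 727 rising and 1137 falling to 300 and 461. The count of falling members, 2, was 1 with median of ratios scaling, 4 with quantile normalization and 4 with array weights, and ranged from 1 to 4 with single libraries left out. Without sibling 4 the falling genes numbered 741 over all genes. With the replicate block 5 members fell, with kpnb3, nup160 and xpo7 added (limma adjusted p = 0.0202, 0.0407 and 0.0376), and 3 rose. The block fit compares groups within the 4 replicate numbers that both groups have, so mutant 1 and sibling 2 add nothing to its fold changes. Deviations from the group means of same-numbered libraries had correlations of -0.03 to 0.15 over genes, and 4 of 8 libraries correlated best with their own number. Between libraries of different numbers the correlations ran from -0.272 (mutant 4 with sibling 2) to 0.297 (mutant 1 with sibling 2). These values do not settle whether the numbers pair libraries, and the main fit did not use the numbers. The difference in the ratio of xpo1a to xpo1b ranged from -0.366 to 0.0524 with single libraries left out. Of the 24 genes for which single values were computed under every alternative that tested them, nup107, nup50 and xpo1b changed direction, and other members near 0 were not followed this way. nup107 ranged from -0.0486 to 0.147 with single libraries left out and was -0.0802 with sibling 2 counted as a mutant. nup50 ranged from -0.13 to 0.20, and was -0.31 with sibling 2 counted as a mutant, -0.0658 with the replicate block and -0.0658 without mutant 1 and sibling 2 together. xpo1b ranged from -0.16 to 0.18, and was 0.0649 with median of ratios scaling, 0.0033 with quantile normalization, 0.11 with array weights, 0.12 with sibling 2 counted as a mutant, 0.21 with the replicate block and 0.21 without mutant 1 and sibling 2 together. The causes were not tested. sf3b1 stayed called in 21 of 21 alternatives. Absolute depth is unknown, so the precision of low rows such as XPO5 and ipo8 cannot be given from counts.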

Other observations

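The reference gene names give 4 rows a symbol that fits the family although the table's own symbol does not. The row now named nup54, a channel nucleoporin that partners nup58 and nup62, was at 16.9 ± 3.79 FPKM in mutants and 15.9 ± 2.51 FPKM in siblings (SD, n = 5), with a log2 fold change of 0.07 (95% interval -0.31 to 0.45). The row now named TNPO2, a second transportin 2 gene, was at 7.61 ± 1.68 and 8.14 ± 1.11 FPKM (SD, n = 5), with a log2 fold change of -0.10 (95% interval -0.48 to 0.27). nup42, listed in the table as nupl2 and known as a cytoplasmic partner of the mRNA export factor Gle1, was at 3.71 ± 1.498 and 2.18 ± 0.632 FPKM (SD, n = 5), with a log2 fold change of 0.53 (limma adjusted p = 0.150). The row now named ipo13a was at or below 0.384 FPKM in every library and was not tested, so nearly all ipo13 signal came from the row described above.

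Intervals show which small differences these libraries can bound. For the 39 members not called, the half-width of the 95% interval had a median of 0.39 and a maximum of 0.61 on the log2 scale, and 26 of them had a log2 fold change within 0.25 of 0.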
